A study of Mus musculus with 18 samples.

Results

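The Bcl2 family cell death genes are 10 genes, Bcl2, Bcl2l1, Mcl1, Bax, Bak1, Bbc3, Pmaip1, Bcl2l11, Bid and Bad, listed by name and matched by symbol to the gene identifiers of the count table. They are 10 of its 55414 genes, and all 10 were tested, among the 21772 genes whose counts summed to 10 or more over all libraries. RNA was counted in 18 libraries of C2C12, a mouse myoblast line that forms multinucleated myotubes once serum is lowered, with 3 libraries in each of 6 groups. The cells received non-targeting control siRNA (siNTC), a pool of siRNAs against Erk3 (siErk3) or a pool against Mk5 (siMk5), and were differentiated for 6 days. They then spent 16 h in serum-free medium with BSA alone (BSA, 0 mM palmitic acid) or with BSA carrying 0.5 mM palmitic acid (Palmitic). The groups are therefore siNTC, siErk3 and siMk5 in BSA and siNTC, siErk3 and siMk5 in Palmitic, and they model muscle cells only as far as a single line and pooled siRNAs do. No label says if the 3 libraries of a group were separate cultures, so p-values measure the spread between libraries. Total counts ran from 13041979 to 28496727 per library, with a median of 22417470.

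Bcl2 family proteins decide at the outer mitochondrial membrane whether cytochrome c is released and caspases are activated. Anti-apoptotic members hold the pore-forming effectors in check, and BH3-only members, many of them induced by stress, free or activate those effectors. In muscle cells, long-chain saturated fatty acids are widely used to evoke lipotoxic and endoplasmic reticulum stress, and several BH3-only genes are known targets of p53, FoxO factors or the ATF4-CHOP branch of that stress response.

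The silenced genes were checked first. Mapk6, which encodes Erk3, stood at 135, 129 and 133 CPM (counts scaled to a common library total with TMM factors) in siNTC BSA and at 56.6, 60.3 and 55.2 CPM in siErk3 BSA. In Palmitic it stood at 215, 236 and 244 CPM in siNTC and at 131, 119 and 109 CPM in siErk3. All siErk3 libraries lay below the siNTC libraries of the same medium, and the level in siErk3 Palmitic came close to that in siNTC BSA. Mapkapk5, which encodes Mk5, stood at 2.53, 2.54 and 2.32 CPM in siNTC BSA, at 1.18, 2.01 and 1.7 in siMk5 BSA, at 2.52, 3.92 and 3.28 in siNTC Palmitic and at 2.43, 2.33 and 2.17 in siMk5 Palmitic. The siMk5 libraries were the lower ones in both media, but neither difference passed the test (edgeR, log2 fold change -0.61 in BSA and -0.49 in Palmitic, FDR 0.469 in both). Of its exonic bases, 56.4% are shared with Gm42878 on the same strand, where read pairs were not assigned. From its RNA-seq, the paper reports a significant reduction of Erk3 and, for Mk5, only a downward trend that missed its FDR threshold. It reports efficient silencing of both targets from Western blots, which were not analysed here.

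A gene was called changed when its FDR over all genes tested was below 0.05 and its fold change above 1.3 either way, a log2 value of 0.379. With palmitic acid in siNTC, 5 of the 10 members rose, against 15.5% of all genes tested, and 1 fell, against 15.1%. In siErk3 the counts were 5 higher, against 15.8%, and 1 lower, against 16.3%. In siMk5 they were 5 higher, against 15.1%, and 1 lower, against 14.6%. Bcl2l1, Mcl1, Bax, Bbc3 and Bid rose in each of the 3 comparisons, while the member that fell was Bcl2 in siNTC and siErk3 and Bcl2l11 in siMk5. These 3 comparisons use separate libraries from one another. The median log2 fold change over the members was 0.38 in siNTC, beside -0.03 over all genes tested, 0.36 in siErk3, beside -0.01, and 0.35 in siMk5, beside -0.02. The median size of the change, sign ignored, was 0.52 for the members and 0.46 for all genes in siNTC. In bulk RNA, fewer cells of a kind and less RNA per cell cannot be told apart.

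**Figure D1:**
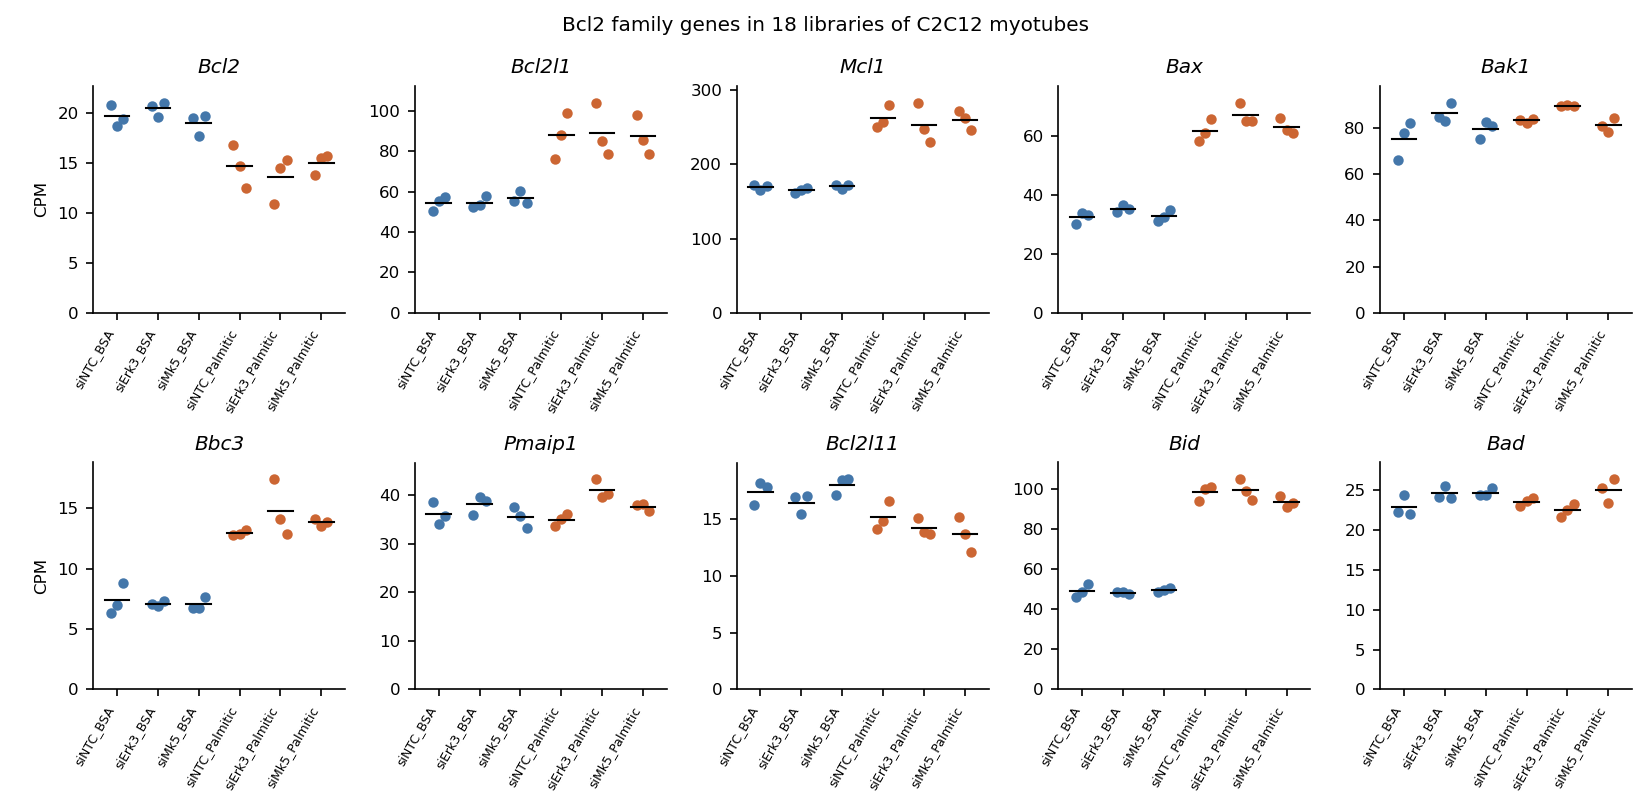
CPM of each member (one panel per gene, vertical axis from 0) in the 18 libraries, BSA in blue and Palmitic in orange, with a line at each group mean. For Bcl2l1, Mcl1, Bax, Bbc3 and Bid, the 9 Palmitic libraries sit above the 9 BSA libraries, and for Bcl2 they sit below them.

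The anti-apoptotic members moved in opposite directions. Bcl2 (ENSMUSG00000057329, chr1:106465908-106642004 of GRCm39), the founding anti-apoptotic member, stood in BSA at 20.8, 18.7 and 19.4 CPM in siNTC, 20.7, 19.6 and 21 in siErk3, and 19.5, 17.7 and 19.7 in siMk5. In Palmitic it stood at 16.8, 14.7 and 12.5 CPM in siNTC, 10.9, 14.5 and 15.3 in siErk3, and 13.8, 15.5 and 15.7 in siMk5. Every Palmitic library was below every BSA library, and the lowest value was library 1 of siErk3. By edgeR the log2 fold change was -0.41 (SE 0.1, FDR 0.00101) in siNTC and -0.59 (SE 0.096, FDR 5.02e-06) in siErk3. In siMk5 it was -0.34 (95% interval -0.54 to -0.14, FDR 0.00528), short of the fold change required, and the interaction with siMk5 was 0.07 (FDR 0.953). The Bcl2 calls in siNTC and siMk5 turned on single libraries. Without library 3 of siNTC Palmitic the siNTC value was -0.33 (FDR 0.00826), no longer past the fold change, and without library 2 of siMk5 BSA the siMk5 value was -0.38 (FDR 0.00632), past it.

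Bcl2l1 (ENSMUSG00000007659, chr2:152622588-152673648), which encodes Bcl-xL and its shorter pro-apoptotic splice form, stood in BSA at 50.6, 55.4 and 57.4 CPM in siNTC, 52.6, 53.4 and 57.8 in siErk3, and 55.6, 60.5 and 54.2 in siMk5. With palmitic acid the values were 76.4, 88.3 and 98.8 CPM in siNTC, 104, 85.3 and 78.5 in siErk3, and 97.9, 85.8 and 78.7 in siMk5. The Palmitic libraries were all above the BSA libraries and spread more widely among themselves. Its log2 fold change was 0.68 (SE 0.088, FDR 1.05e-07) in siNTC, 0.71 (FDR 2.94e-08) in siErk3 and 0.63 (FDR 4.44e-07) in siMk5. The counts are summed over transcripts, so the share of each splice form was not measured.

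Mcl1 (ENSMUSG00000038612, chr3:95566099-95570487), a short-lived anti-apoptotic protein, stood in BSA at 172, 165 and 171 CPM in siNTC, 162, 165 and 168 in siErk3, and 172, 167 and 172 in siMk5. Palmitic libraries held 250, 257 and 280 CPM in siNTC, 283, 248 and 230 in siErk3, and 272, 262 and 247 in siMk5. The media did not overlap, and the BSA libraries lay close together. Its log2 fold change was 0.63 (SE 0.057, FDR 5.88e-11) in siNTC, 0.62 (FDR 6.05e-11) in siErk3 and 0.62 (FDR 9.87e-11) in siMk5.

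Of the 2 effectors, which form the pore in the outer membrane, Bax rose and Bak1 did not pass the test. Bax (ENSMUSG00000003873, chr7:45111121-45116322) stood in BSA at 30.1, 34 and 33.1 CPM in siNTC, 34.1, 36.4 and 35.2 in siErk3, and 31, 32.5 and 35 in siMk5. Palmitic libraries held 58.4, 61.1 and 65.8 CPM in siNTC, 71.2, 64.9 and 64.9 in siErk3, and 66.2, 61.9 and 60.9 in siMk5. No Palmitic library came near the BSA range, and library 1 of siErk3 was the highest. By edgeR the change was 0.92 on the log2 scale (SE 0.062, FDR 9e-14) in siNTC, 0.93 (FDR 2.4e-14) in siErk3 and 0.94 (FDR 4.76e-14) in siMk5. Of its 1576 exonic bases, 192 (12.2%) are shared with Gm45808 on the same strand, where read pairs were not assigned, so its level is a lower estimate.

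Bak1 (ENSMUSG00000057789, chr17:27238784-27247983) stood in BSA at 66.1, 77.6 and 82.1 CPM in siNTC, 84.7, 82.9 and 90.7 in siErk3, and 74.9, 82.3 and 80.8 in siMk5. Palmitic libraries held 83.4, 82 and 83.9 CPM in siNTC, 89.2, 89.8 and 89.5 in siErk3, and 80.6, 78.2 and 84.1 in siMk5. The media overlapped with each siRNA, and library 1 of siNTC BSA was the lowest of all 18. The log2 fold change with palmitic acid was 0.14 in siNTC (95% interval 0.02 to 0.26, FDR 0.055), 0.06 in siErk3 (FDR 0.461) and 0.03 in siMk5 (FDR 0.731).

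The 5 BH3-only members divided into 2 that rose with each siRNA, 2 that passed in no comparison and 1 that fell in siMk5. Bid (ENSMUSG00000004446, chr6:120868891-120893814), which links death receptors to mitochondria after caspase-8 cleaves it, stood in BSA at 46.4, 48.5 and 52.8 CPM in siNTC, 48.6, 48.9 and 47.5 in siErk3, and 48.7, 49.5 and 50.9 in siMk5. The Palmitic values were 94.4, 100 and 101 CPM in siNTC, 105, 99 and 94.9 in siErk3, and 96.5, 91.3 and 93.4 in siMk5. The lowest Palmitic library was far above the highest BSA library. The log2 fold change was 1.00 (SE 0.052, FDR 2.37e-16) in siNTC, 1.04 (FDR 3.99e-17) in siErk3 and 0.92 (FDR 1.87e-15) in siMk5, the smallest FDR among the members in each.

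Bbc3 (ENSMUSG00000002083, chr7:16042318-16052130), which encodes Puma, a binder of all the anti-apoptotic members and a known p53 target, stood in BSA at 6.32, 7 and 8.84 CPM in siNTC, 7.06, 6.92 and 7.3 in siErk3, and 6.72, 6.74 and 7.64 in siMk5. In Palmitic it stood at 12.8, 12.9 and 13.2 CPM in siNTC, 17.4, 14.1 and 12.9 in siErk3, and 14.1, 13.5 and 13.9 in siMk5. The media did not overlap, and library 1 of siErk3 Palmitic stood above the rest. Its log2 fold change was 0.79 (SE 0.108, FDR 2.88e-07) in siNTC, 1.06 (SE 0.102, FDR 2.3e-10) in siErk3 and 0.98 (SE 0.108, FDR 4.75e-09) in siMk5. The difference between siErk3 and siNTC did not pass its test, with an interaction of 0.27 (95% interval -0.04 to 0.58, FDR 0.835).

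Bcl2l11 (ENSMUSG00000027381, chr2:127967958-128004467), which encodes Bim, a known FoxO target, stood in BSA at 16.2, 18.2 and 17.8 CPM in siNTC, 16.9, 15.4 and 17 in siErk3, and 17.1, 18.4 and 18.5 in siMk5. In Palmitic it stood at 14.1, 14.8 and 16.6 CPM in siNTC, 15.1, 13.9 and 13.7 in siErk3, and 15.2, 13.7 and 12.1 in siMk5. The media overlapped in siNTC, where library 3 of Palmitic lay above library 1 of BSA, and did not overlap in siErk3 or siMk5. The log2 fold change was -0.39 (SE 0.084, FDR 0.000259) in siMk5, just past the fold change required. It was -0.21 in siNTC (95% interval -0.38 to -0.04, FDR 0.0422) and -0.20 in siErk3 (FDR 0.0393), both short of that fold change, and the interaction with siMk5 was -0.18 (FDR 0.753). Leaving out library 2 of siMk5 BSA gave -0.37 (FDR 0.00217), leaving out library 3 of siMk5 BSA gave -0.37 (FDR 0.00183) and leaving out library 3 of siMk5 Palmitic gave -0.31 (FDR 0.00444), each short of the fold change.

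Pmaip1 (ENSMUSG00000024521, chr18:66591604-66598636), which encodes Noxa, a binder of Mcl1, stood in BSA at 38.7, 34 and 35.8 CPM in siNTC, 35.9, 39.6 and 38.9 in siErk3, and 37.6, 35.7 and 33.3 in siMk5. Palmitic libraries held 33.7, 35.1 and 36.2 CPM in siNTC, 43.3, 39.6 and 40.2 in siErk3, and 38, 38.2 and 36.7 in siMk5. The media overlapped with each siRNA, and the 3 siErk3 Palmitic libraries were the highest of the Palmitic libraries. With palmitic acid the log2 fold change was -0.04 in siNTC (95% interval -0.17 to 0.09, FDR 0.662), 0.11 in siErk3 (FDR 0.153) and 0.08 in siMk5 (FDR 0.324).

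Bad (ENSMUSG00000024959, chr19:6919229-6929267), whose binding to Bcl-xL is controlled by phosphorylation, ranged over the 18 libraries only from 21.7 CPM in library 1 of siErk3 Palmitic to 26.4 CPM in library 3 of siMk5 Palmitic. The media overlapped in siNTC and siMk5, while in siErk3 the Palmitic values of 21.7, 22.6 and 23.3 CPM lay below the BSA values of 24.2, 25.6 and 24.1 CPM. The log2 fold change was 0.04 in siNTC (95% interval -0.10 to 0.17, FDR 0.697), -0.13 in siErk3 (FDR 0.0919) and 0.02 in siMk5 (FDR 0.851).

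Counted by overlap alone, 6 members did not overlap between the media in siNTC, beside 51.3% of all genes tested, 8 in siErk3, beside 53.9%, and 7 in siMk5, beside 51.9%.

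Promoter windows are shown for Bbc3, Bax and Bid, which rose with palmitic acid, and for Bcl2l11, the other searched member with a FoxO motif match. The windows run from 250 bases before to 50 bases after a start site and come from RefSeq with build GRCm38.p6, unlike the gene positions above, which are of GRCm39. The table held 15 windows for 9 members and none for Pmaip1. The FoxO motif GTAAACA and the C/EBP-ATF motif TTGCATCA were searched on both strands. The FoxO letters were found in 2 of the 15 windows, 1 of Bbc3 and 1 of Bcl2l11, and in 3.65% of all 32851 windows. The C/EBP-ATF letters were in 0 of the 15 windows and in 0.895% of all windows. Each sequence is given 5′ to 3′ on the strand of its gene, and capitals mark the FoxO match. Bbc3 is on the plus strand at chr7:16310011-16310310, with the match on bases 84 to 90 in reverse orientation. Bcl2l11 is on the plus strand at chr2:128125788-128126087, with the match on bases 24 to 30. Bax is on the minus strand at chr7:45466849-45467148 and Bid on the minus strand at chr6:120916775-120917074, both without a match.
Bbc3: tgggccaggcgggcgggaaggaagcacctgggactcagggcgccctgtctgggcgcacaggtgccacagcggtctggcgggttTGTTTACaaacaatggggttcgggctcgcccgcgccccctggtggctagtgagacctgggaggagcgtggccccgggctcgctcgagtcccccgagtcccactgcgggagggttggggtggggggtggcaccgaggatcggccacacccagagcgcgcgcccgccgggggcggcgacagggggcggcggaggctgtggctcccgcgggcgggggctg
Bcl2l11: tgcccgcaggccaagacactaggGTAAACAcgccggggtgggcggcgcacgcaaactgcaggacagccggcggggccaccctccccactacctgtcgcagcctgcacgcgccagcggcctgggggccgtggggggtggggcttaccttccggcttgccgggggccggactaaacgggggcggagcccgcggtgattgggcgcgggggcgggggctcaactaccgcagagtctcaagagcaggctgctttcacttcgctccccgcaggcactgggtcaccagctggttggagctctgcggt
Bax: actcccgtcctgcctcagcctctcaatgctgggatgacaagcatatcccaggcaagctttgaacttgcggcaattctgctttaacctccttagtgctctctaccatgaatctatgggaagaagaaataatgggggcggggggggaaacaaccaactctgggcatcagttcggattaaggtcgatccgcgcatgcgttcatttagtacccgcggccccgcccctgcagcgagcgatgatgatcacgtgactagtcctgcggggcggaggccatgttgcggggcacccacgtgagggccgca
Bid: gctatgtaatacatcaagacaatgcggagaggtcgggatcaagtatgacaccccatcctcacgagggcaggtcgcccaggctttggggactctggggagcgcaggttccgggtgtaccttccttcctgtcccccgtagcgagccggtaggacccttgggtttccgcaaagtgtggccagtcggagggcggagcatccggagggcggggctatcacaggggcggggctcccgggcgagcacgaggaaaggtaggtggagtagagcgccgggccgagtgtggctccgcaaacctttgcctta
The other windows of Bbc3 and Bcl2l11 did not hold the FoxO letters. A match describes letters in a window, and binding was not measured.

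Levels can be compared between genes only per length, here CPM per kilobase of the summed exonic bases of all annotated transcripts of a gene. In siNTC BSA the order was Mcl1 at 49.6, Bak1 at 31.3, Bax at 20.6, Bid at 13.9, Pmaip1 at 13.2, Bcl2l1 at 11.9, Bad at 8.96, Bbc3 at 3.48, Bcl2l11 at 2.17 and Bcl2 at 2.14 CPM per kilobase. Bid overlapped with Pmaip1, Pmaip1 with Bcl2l1, and Bcl2l11 with Bcl2, while the other neighbours did not overlap. In siNTC Palmitic the order was Mcl1 at 76.8, Bax at 39.2, Bak1 at 34.5, Bid at 27.8, Bcl2l1 at 19.1, Pmaip1 at 12.8, Bad at 9.22, Bbc3 at 6.09, Bcl2l11 at 1.89 and Bcl2 at 1.6 CPM per kilobase. Only Bcl2l11 and Bcl2 overlapped there. Mcl1 was thus the most abundant member per length in both groups, with Bcl2l11 and Bcl2 at the bottom. Bax stood below Bak1 in all 3 BSA groups and above it in all 3 Palmitic groups, without overlap.

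**Figure D2:**
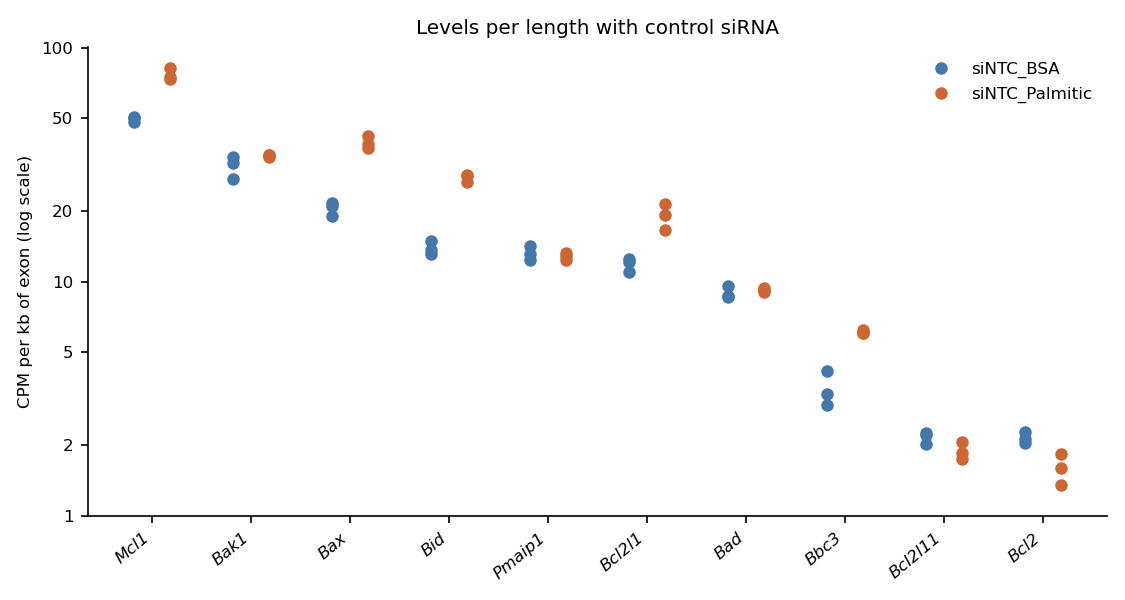
CPM per kilobase of exon (log axis) of each member in the 3 siNTC BSA libraries (blue) and the 3 siNTC Palmitic libraries (orange), ordered by the BSA mean. Bax passes Bak1 in Palmitic, with means of 39.2 and 34.5, and Bcl2 and Bcl2l11 stay lowest.

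The ratio of Bax to Bcl2 per length was 8.42, 10.6 and 9.93 in siNTC BSA, 9.55, 10.8 and 9.75 in siErk3 BSA, and 9.25, 10.7 and 10.3 in siMk5 BSA. In Palmitic it was 20.2, 24.2 and 30.6 in siNTC, 37.8, 25.9 and 24.6 in siErk3, and 27.8, 23.2 and 22.6 in siMk5. The lowest Palmitic ratio exceeded the highest BSA ratio, with library 1 of siErk3 highest. Against Bcl2l1, which rose as well, the ratio of Bax moved less, from 1.73 ± 0.0525 (SD, n = 3) in siNTC BSA to 2.06 ± 0.15 in siNTC Palmitic. In siErk3 it was 1.88 ± 0.104 in BSA and 2.2 ± 0.209 in Palmitic, and in siMk5 1.69 ± 0.167 and 2.1 ± 0.142. These are ratios of RNA, and protein was not measured in these libraries. No test was run on either ratio.

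With siErk3 against siNTC in BSA, 0 of the 10 members passed in edgeR, against 0.785% of all genes tested, and 0 by DESeq2. There was 1 at an unadjusted p below 0.05, beside 10.6% of all genes, so this count was near the background. That member was Bak1, with the values given above, at an edgeR log2 fold change of 0.19 (unadjusted p = 0.0026, FDR 0.136). Its siErk3 libraries all lay above its siNTC libraries. The 95% intervals of the members ran from -0.31 for Bbc3 to 0.31 for Bak1 at the outermost. The median log2 fold change was 0.03 over the members and 0.02 over all genes. Bax and Bak1 were the 2 members without overlap, both higher in siErk3, beside 17.4% of all genes.

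With siErk3 against siNTC in Palmitic, 0 of 10 passed in edgeR, against 0.556% of all genes, and 0 by DESeq2. There were 3 at an unadjusted p below 0.05, beside 8.28% of all genes. They were Pmaip1 (log2 fold change 0.23, FDR 0.0695), Bax (0.12, FDR 0.598) and Bbc3 (0.20, FDR 0.603). Pmaip1 was higher in 3 of 3 siErk3 libraries than in any siNTC library, as was Bak1, and these 2 members without overlap stand beside 12.1% of all genes. The outermost interval bounds were -0.32 for Bcl2 and 0.39 for Bbc3, and the median was 0.02 over the members and -0.004 over all genes.

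With siMk5 against siNTC in BSA, 0 of 10 members passed in edgeR, against 0.0643% of all genes, and 0 by DESeq2. There were 0 at an unadjusted p below 0.05, beside 6.89% of all genes. All 10 members overlapped between these groups, where 12.3% of all genes did not. The interval bounds reached -0.33 for Bbc3 and 0.24 for Bcl2l1. In Palmitic, siMk5 against siNTC again gave 0 of 10 in edgeR, against 0.547% of all genes, and 0 by DESeq2. There were 0 at an unadjusted p below 0.05, beside 6.79% of all genes. Bbc3 and Pmaip1 were the 2 members without overlap there, both higher in siMk5, beside 12% of all genes, and bounds reached -0.32 for Bcl2l11 and 0.30 for Bbc3. The median of the members was 0.01 in both media, beside 0.01 over all genes in BSA and 0.002 in Palmitic.

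Between the silenced genes, siErk3 against siMk5 in BSA gave 0 of 10 members in edgeR, against 0.588% of all genes, and 0 by DESeq2. There was 1 at an unadjusted p below 0.05, beside 8.49% of all genes, so this count was near the background. In Palmitic this comparison gave 0 of 10 in edgeR, against 1.03% of all genes, and 0 by DESeq2. There were 3 at an unadjusted p below 0.05, beside 10.2% of all genes. The smallest FDR was 0.323, for Bak1 at a log2 fold change of 0.15. Members without overlap were 2 in BSA, Bak1 higher and Bcl2l11 lower in siErk3, beside 15.3% of all genes. They were 3 in Palmitic, Bak1 and Pmaip1 higher and Bad lower in siErk3, beside 14.7%. The interaction of siErk3 with palmitic acid passed for 0 of 10 members in edgeR, against 0.0367% of all genes. That of siMk5 passed for 0 of 10, against 0.211%, and DESeq2 gave 0 in both. Both had 0 members at an unadjusted p below 0.05, beside 6.1% of all genes with siErk3 and 7.43% with siMk5. Interaction intervals of the members reached from -0.46 for Bcl2 to 0.58 for Bbc3 with siErk3 and from -0.42 for Bcl2l11 to 0.50 for Bbc3 with siMk5. A difference of the size required, 0.379, lies within the intervals of Bcl2 and Bbc3 with siErk3 and of Bcl2l11 and Bbc3 with siMk5, and outside those of the other members. The comparisons with siNTC share its libraries in each medium, and the comparisons of siErk3 with siMk5 and the interactions use the same libraries again.

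**Figure D3:**
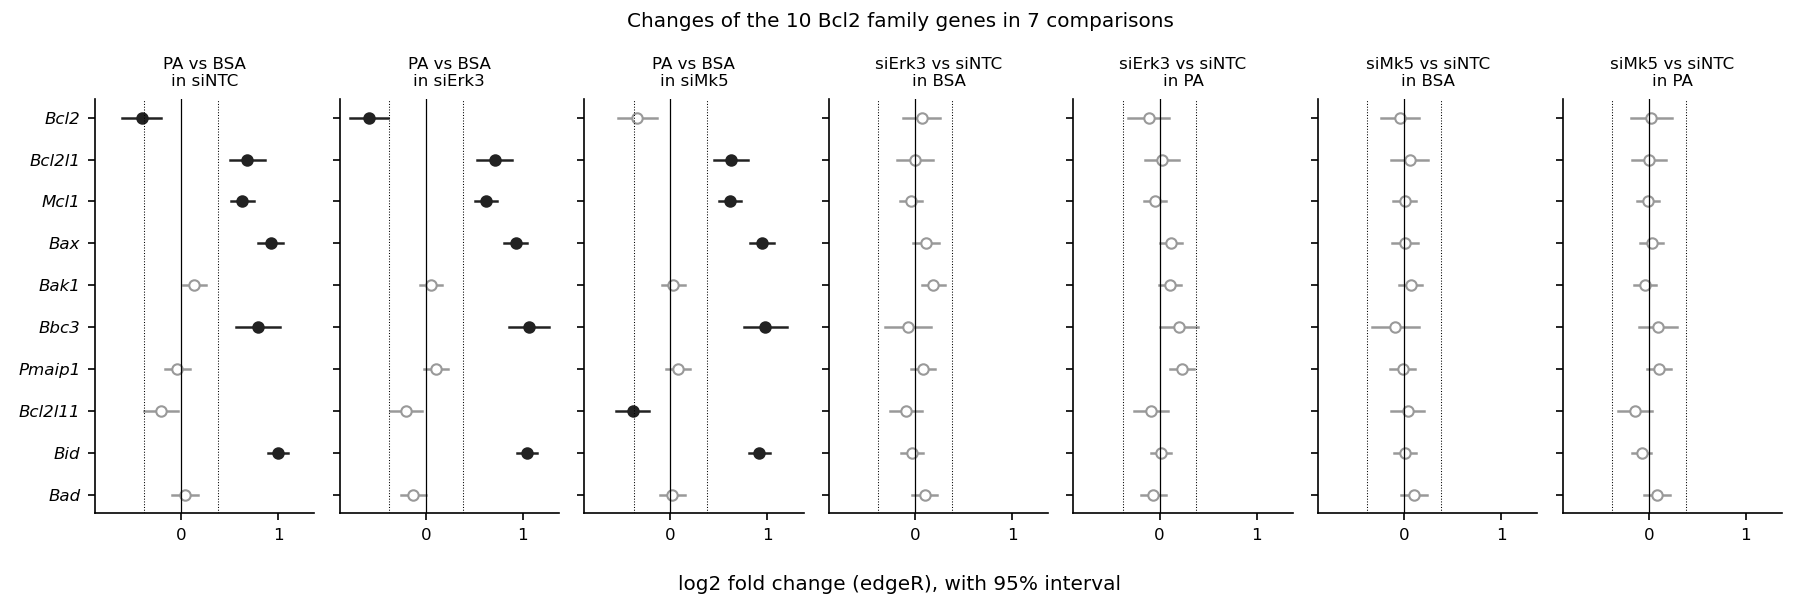
Log2 fold change of each member with its 95% interval (edgeR) in the 3 comparisons of palmitic acid with BSA and the 4 comparisons of silencing with siNTC. Filled points passed both criteria, open points did not, and dotted lines mark a log2 fold change of 0.379 either way. The filled points are 6 in each palmitic acid panel and 0 in the silencing panels.

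Of 14 other Bcl2 family genes listed, 9 were tested, and Bcl2a1a, Bcl2a1b, Bcl2a1d, Bcl2l10 and Hrk had too few counts. With palmitic acid 1 rose, 3 fell and 5 did not pass in each comparison. In siNTC, 15.5% of all genes tested rose and 15.1% fell, and the median log2 fold change of the list was -0.35, beside -0.03 over all genes. Bok, an effector-like member, fell from 49.5, 53.9 and 53.7 CPM in siNTC BSA to 30, 30.6 and 27.4 CPM in siNTC Palmitic (log2 fold change -0.84, FDR 4.45e-13). Bmf, a BH3-only gene, fell from 12.1, 14.9 and 11.3 CPM to 5.35, 6.16 and 4.8 CPM (-1.24, FDR 1.67e-09). For both genes the groups did not overlap. Bnip3, a mitochondrial protein of mitophagy, rose (0.51, FDR 1.11e-06). The third gene that fell was Bcl2l12 in siNTC (-0.38, FDR 0.0199), just past the fold change required. In siErk3 (-1.05, FDR 0.0346) and siMk5 (-1.36, FDR 0.00269) it was Bik, a gene with a mean below 1 CPM. Bcl2l12 was at -0.30 in siErk3 (FDR 0.0473) and -0.26 in siMk5 (FDR 0.122), and Bik at -0.35 in siNTC (FDR 0.523). Their interactions did not pass, with FDR 0.985 and 0.887 for siErk3 and 0.925 and 0.685 for siMk5. By DESeq2, 4, 3 and 4 genes of this list passed with siNTC, siErk3 and siMk5.

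Downstream of the pore, 20 genes of the apoptosome, the caspases and their inhibitors were tested. With palmitic acid 2 rose and 4 fell in siNTC, 1 rose and 5 fell in siErk3, and 1 rose and 4 fell in siMk5. Of all genes, 15.5% rose and 15.1% fell in siNTC, 15.8% and 16.3% in siErk3, and 15.1% and 14.6% in siMk5, so these counts were near the background. Cycs, which encodes cytochrome c, rose (log2 fold change 0.43 in siNTC, FDR 3.71e-09), as did Aifm1 in siNTC (0.40, FDR 1.68e-07). Birc5, an inhibitor of apoptosis that is also made in dividing cells, fell from 39.6, 42 and 42.2 CPM in siNTC BSA to 18.9, 17.4 and 15.6 CPM in siNTC Palmitic (-1.25, FDR 5.83e-14). Its Palmitic values were below its BSA values in every library. Casp6 (-0.60, FDR 1.35e-06), an executioner caspase, and Casp12 (-0.51, FDR 6.57e-07), a caspase of the endoplasmic reticulum, fell in siNTC. The list's median was -0.16 in siNTC, beside -0.03 over all genes.

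Of 12 death receptor and necroptosis genes, 6 rose and 1 fell in siNTC, 6 and 1 in siErk3, and 5 and 1 in siMk5, against 15.5% of all genes higher and 15.1% lower in siNTC. The median was 0.37 in siNTC, beside -0.03 over all genes. Mlkl, the executor of necroptosis, stood at 14.7, 14.2 and 14.9 CPM in siNTC BSA and at 50.2, 51.8 and 58.8 CPM in siNTC Palmitic. In siErk3 Palmitic it stood at 67.6, 60 and 56.9 CPM and in siMk5 Palmitic at 48.5, 44.3 and 43.3 CPM. All Palmitic libraries were well above BSA, and within Palmitic the siMk5 libraries lay below the siErk3 libraries. Its log2 fold change with palmitic acid was 1.87 in siNTC (FDR 4.82e-19), 1.87 in siErk3 (FDR 8.92e-20) and 1.48 in siMk5 (FDR 1.49e-16). Between siErk3 and siMk5 in Palmitic it was 0.44 (FDR 3.61e-05), the only pass among the 74 tested genes of the 6 lists in any silencing comparison or interaction in edgeR. Without library 1 of siErk3 Palmitic that value was 0.36 (FDR 0.000369), short of the fold change, and the interaction with siMk5 was -0.40 (FDR 0.159). Against siNTC in Palmitic, Mlkl was at 0.20 with siErk3 (FDR 0.206) and -0.24 with siMk5 (FDR 0.117), and neither passed. Cflar, an inhibitor of caspase-8 (1.11, FDR 7.56e-15), Tnfrsf10b, a receptor for TRAIL (0.88, FDR 6.24e-14), and Ripk1, a kinase of both pathways (0.79, FDR 2.1e-12), also rose in siNTC. Fas, another death receptor, was the gene that fell, with log2 fold changes of -0.59 in siNTC (FDR 1.28e-05), -0.82 in siErk3 (FDR 2.95e-08) and -0.87 in siMk5 (FDR 1.29e-08). Its interaction was -0.23 with siErk3 (FDR 0.849) and -0.29 with siMk5 (FDR 0.677).

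In the other silencing comparisons and the interactions, 0 of those 74 genes passed in edgeR. At an unadjusted p below 0.05 there were 11 for siErk3 against siNTC in BSA (14.9%, beside 10.6% of all genes tested) and 4 in Palmitic (5.41%, beside 8.28%). For siMk5 against siNTC there were 10 in BSA (13.5%, beside 6.89%) and 7 in Palmitic (9.46%, beside 6.79%), and for siErk3 against siMk5 in BSA there were 10 (13.5%, beside 8.49%). The interaction with siErk3 had 4 (5.41%, beside 6.1%) and that with siMk5 had 6 (8.11%, beside 7.43%), and DESeq2 gave 0 in each of these 7 comparisons. For siErk3 against siMk5 in Palmitic, where Mlkl passed, there were 12 (16.2%, beside 10.2%), and DESeq2 gave 1.

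The 8 genes of the ATF4-CHOP branch all rose with each siRNA, against 15.5% of all genes in siNTC. Their median on the log2 scale was 3.59 in siNTC, 3.63 in siErk3 and 3.56 in siMk5. Ddit3, which encodes CHOP, went from 10.5, 14.5 and 13.4 CPM in siNTC BSA to 227, 252 and 259 CPM in siNTC Palmitic (4.24, FDR 9.5e-28). Trib3, a CHOP target, went from 4.28, 3.75 and 4.02 CPM to 121, 131 and 136 CPM (5.02, FDR 6.1e-29). Neither gene came near overlap between the media, and both changes were larger than that of any member.

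Among 16 p53 target genes other than the members, 7 rose and 2 fell in siNTC, 7 and 2 in siErk3, and 8 and 2 in siMk5, against 15.5% of all genes higher and 15.1% lower in siNTC. The count that fell was near the background, and the median was 0.32 in siNTC, beside -0.03 over all genes. Sesn2, a stress sensor that is also an ATF4 target, rose from 16.2, 18.5 and 17.3 CPM in siNTC BSA to 60.5, 70.5 and 71.3 CPM in siNTC Palmitic (1.95, FDR 1.45e-18). Tigar, a regulator of glycolysis (1.32, FDR 8.36e-14), and Aen, an exonuclease (0.79, FDR 1.18e-11), rose as well. Sesn1, also a p53 target, fell (-0.90, FDR 7.72e-15), so the list did not move one way. By DESeq2, 9 genes passed in siNTC, 9 in siErk3 and 7 in siMk5. The other gene that fell, named after its values were seen, was Cdkn1a in siNTC (-0.41, FDR 3.68e-10). In siErk3 (-2.08, FDR 0.0164) and siMk5 (-1.57, FDR 0.0484) it was Perp, with a mean below 1 CPM. Cdkn1a was at -0.27 in siErk3 (FDR 8.93e-07) and -0.29 in siMk5 (FDR 2.99e-07), both short of the fold change required. Perp was at -0.94 in siNTC (FDR 0.197). The interactions of Cdkn1a and Perp did not pass, with FDR 0.717 and 0.892 for siErk3 and 0.665 and 0.908 for siMk5.

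Of 10 regulators of BH3-only genes, 9 were tested, with Trp73 too low in counts, and 4 rose, 1 fell and 4 did not pass with each siRNA. Of all genes, 15.5% rose and 15.1% fell in siNTC, and the list's median was 0.30, beside -0.03 over all genes. Trp53 stood at 74.9, 82.8 and 84.1 CPM in siNTC BSA and at 122, 132 and 142 CPM in siNTC Palmitic (0.71, FDR 1.31e-11). Foxo1, a forkhead factor, stood at 73.3, 79 and 82.3 CPM and at 45.6, 42 and 36.8 CPM (-0.92, FDR 3.11e-12). Trp53 was higher and Foxo1 lower in all 3 Palmitic libraries. Cebpb (2.02, FDR 4.74e-18), Myc (2.07, FDR 9.04e-17) and Jun (0.86, FDR 3.03e-10), all transcription factors, rose. By DESeq2, 5 genes passed in siNTC, 5 in siErk3 and 6 in siMk5. The part of any of these genes in the levels of the members was not tested.

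**Figure D4:**
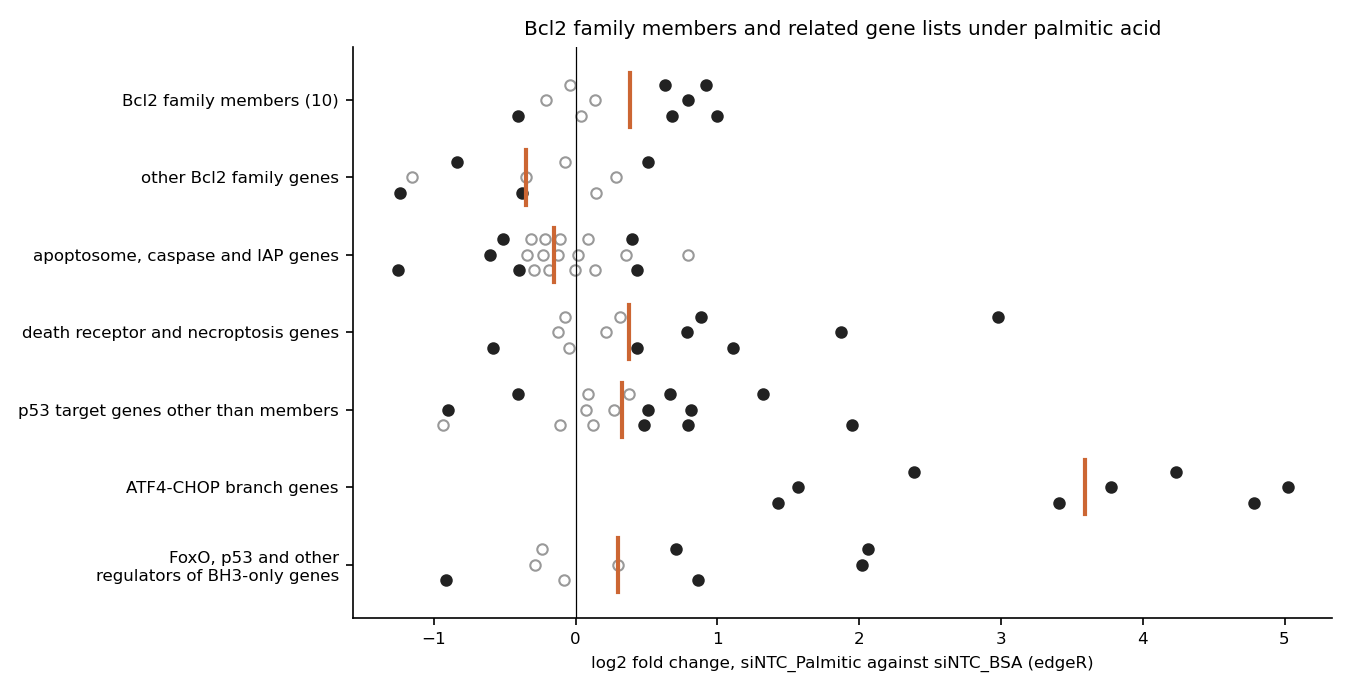
Log2 fold change of siNTC Palmitic against siNTC BSA (edgeR) for the 10 members and the tested genes of the 6 lists, one point per gene, filled where it passed both criteria, with an orange bar at each list's median. The ATF4-CHOP genes have a median of 3.59, and the members one of 0.38.

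Bbc3 and Bax had the widest range of group means among the members, 1.06 and 1.05 on the log2 scale, so the genes most like them were listed. Over the 18 libraries, the Pearson correlation of log2 CPM with Bbc3 was highest for Spef1 (0.984), Higd1a (0.983), Akr1b1 (0.982), Stk40 (0.981) and Vps11 (0.980). With Bax it was highest for Sec61g (0.996), Dnajb1 (0.996), Map2k1 (0.995), Aars1 (0.995) and Trmt1 (0.995). All 10 of these genes rose with palmitic acid in siNTC, and the points share the division into 9 BSA and 9 Palmitic libraries. Correlations within a medium were not computed.

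Markers of the cells moved with palmitic acid beside these results. Of 10 myotube markers, 6 fell in siNTC, against 15.1% of all genes, 3 in siErk3, against 16.3%, and 3 in siMk5, against 14.6%, and DESeq2 gave 6, 3 and 4. Their medians were -0.40, -0.35 and -0.32. Ckm, Mymk and Ttn passed in siNTC alone, but their values lay on either side of the fold change required. In siNTC, siErk3 and siMk5, Ckm was at -0.38, -0.33 and -0.27, Mymk at -0.42, -0.38 and -0.36 and Ttn at -0.49, -0.37 and -0.38. In both interactions with palmitic acid, 0 of the 10 markers passed. Myog had the smallest FDR in siNTC (-0.59, FDR 6.7e-13). Their summed level was 14000, 14300 and 14700 CPM in siNTC BSA, 14700, 14100 and 15900 in siErk3 BSA, and 14600, 14400 and 12700 in siMk5 BSA. It was 11800, 12300 and 12300 CPM in siNTC Palmitic, 13600, 12500 and 12800 in siErk3 Palmitic, and 12300, 11600 and 13200 in siMk5 Palmitic. Ttn took the most counts at a mean of 3430 CPM, Acta1 was the most abundant per length at a mean of 2090 CPM per kilobase, and none was at 0. In the comparisons of siErk3 with siNTC, Myh8 rose in both media, and Myh3 was at 0.39 in BSA (FDR 1.44e-05), past the fold change, and at 0.38 in Palmitic (FDR 2.38e-05), just short of it.

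Of 7 markers of undifferentiated or dividing myoblasts, 6 fell with palmitic acid with each siRNA, against 15.1% of all genes in siNTC. Their summed level was 967, 960 and 997 CPM in siNTC BSA, 1000, 987 and 1030 in siErk3 BSA, and 1000, 1030 and 994 in siMk5 BSA. In Palmitic it was 530, 481 and 449 CPM in siNTC, 406, 496 and 534 in siErk3, and 462, 477 and 484 in siMk5. The sums did not overlap between the media. Mki67, with the most counts at a mean of 302 CPM, fell by 1.13 in siNTC (FDR 1.65e-15), while Myod1 was the most abundant per length at a mean of 36.3 CPM per kilobase, and no marker of the list was at 0. Of 7 markers of other cells, 4 were tested and 1 fell in siNTC and siErk3, Pdgfra, while 1 rose and 1 fell in siMk5, Cd68 and Pdgfra, where DESeq2 gave 1 in all. Their sum was 23.1, 22.8 and 25 CPM in siNTC BSA, 22.9, 19.4 and 22.5 in siErk3 BSA, and 23.4, 25.5 and 26.2 in siMk5 BSA. It was 15.9, 13.8 and 15.2 CPM in siNTC Palmitic, 12.5, 14.4 and 14.2 in siErk3 Palmitic, and 12.7, 16.5 and 13.6 in siMk5 Palmitic. Pdgfra gave most of it at a mean of 17.2 CPM, while the endothelial markers Pecam1 and Cdh5 were below 1 CPM, and Adipoq, Ptprc and Adgre1 had 1, 2 and 0 counts over all libraries. The part of these markers in the changes of the Bcl2 family genes was not tested. The share of counts on 18S ribosomal RNA was 5.12% ± 2.35 (SD, n = 3) in siNTC BSA and 5.96% ± 0.575 in siNTC Palmitic, 2.1% ± 0.77 and 5.46% ± 1.55 in siErk3, and 10.7% ± 2.24 and 4.25% ± 2.49 in siMk5, and its part was not tested either.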

How the data were processed

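RNA of 18 libraries was measured, and the authors deposited counts of read pairs per gene without normalization, made with featureCounts 2.0.0 (strand setting 2, minimum mapping quality 3, Ensembl 105, GRCm39). The labels name mm10 instead, but the header of the table and the methods name GRCm39. The deposited table also gives the summed exonic bases of each gene, in other units than counts. Its genes were named with GENCODE M39, which held 54749 of the 55414. The log2 values the authors deposited were not used. The genes whose counts summed to 10 or more were tested with edgeR 4.0.16 in R 4.3.3 (TMM, quasi-likelihood, 1 coefficient per group, Benjamini-Hochberg over 21772 genes), with 95% intervals from the standard error. Python 3.11.15 was used for sequences and figures. Depth limits precision mainly for genes with few counts. The tests were checked on simulated data. Members and lists were chosen with earlier results of these data known. Genes named are the members, Mapk6, Mapkapk5, list genes that passed in a silencing comparison or interaction, up to 5 per list with the smallest FDR in each palmitic acid comparison, the genes most like Bbc3 and Bax, and the markers. Alternatives were DESeq2 1.42.0, its size factors, filterByExpr, no filter, the replicate number as a block, only the groups compared, FDR alone, and leaving out each library. A search for the BH3 motif in proteins was not run, since no protein sequences were at hand.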

Additional observations from a re-analysis of the deposited data

How the results depend on the processing

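The number of members called was the same as in the edgeR analysis, 6 in each palmitic acid comparison and 0 in the silencing comparisons and interactions, with DESeq2, with its size factors, with filterByExpr, with no filter and with only the groups compared. With FDR alone it was 7 in each palmitic acid comparison, Bcl2l11 being added in siNTC and siErk3 and Bcl2 in siMk5. Leaving out 1 library gave 5 to 6 in siNTC and in siMk5, and 6 in siErk3. Of 216 values of called members under an alternative, 212 passed in the same direction, 4 did not pass and 0 reversed. The 4 were those of Bcl2 and Bcl2l11 given above. Bid in siNTC ranged from 0.94 to 1.03 and Bcl2 in siNTC from -0.53 to -0.33.

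The replicate block, with the replicate number as a term, also gave 6 members in each palmitic acid comparison and 0 elsewhere. Numbers were not treated as pairs. Over 9841 genes, the mean correlation of same-numbered deviations was 0.04 for palmitic acid in siNTC, 0 in siErk3 and -0.01 in siMk5. It was -0.05 for siErk3 against siNTC in BSA and -0.41 in Palmitic, 0.16 for siMk5 against siNTC in BSA and -0.32 in Palmitic, and -0.03 for siErk3 against siMk5 in BSA and 0.38 in Palmitic. In no comparison were all 3 numbers above 0.1. In Palmitic, however, numbers 1 and 3 departed widely from 0. For numbers 1, 2 and 3, the correlations were -0.62, 0.02 and -0.64 for siErk3 against siNTC. They were -0.51, -0.01 and -0.44 for siMk5 against siNTC and 0.56, 0.07 and 0.5 for siErk3 against siMk5.

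With 3 libraries per group from a single line, the results describe these cultures only.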
